A study of Mus musculus with 115 samples.

Results

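The 10 genes described here carry out or switch on antigen presentation by MHC class I molecules. They are H2-K1, H2-D1, B2m, Tap1, Tap2, Tapbp, Psmb8, Psmb9, Psmb10 and Nlrc5, chosen by name from the 45699 genes of the deposited table, and all 10 were found in it. RNA was sequenced from prostate tumor tissue of (TRAMP x WSB/EiJ) F2 mice, 1 library from each, all labelled Transgene positive, and the labels place every library in 1 group. TRAMP mice express the SV40 early region in the prostate epithelium under the probasin promoter, the TRAMP parent was on the C57BL/6 background, and WSB/EiJ is an inbred strain of wild origin. The mice were males followed to a fixed study end or a humane endpoint, and small prostates were sampled from the ventral lobe. The methods of the study name fewer mice for RNA-seq than the table has libraries, and since the labels do not mark them, all libraries were used. No library from a mouse without the transgene was analysed here, and age, tumor weight and genotype at the MHC were not used here. The levels are in TPM, a scaled share of a library's transcripts that belong to a gene after division by transcript length. TPM keeps no read depth, so the counting error behind a single value is unknown.

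Class I molecules show peptides from the inside of a cell to cytotoxic T cells. H2-K1 and H2-D1 encode the classical heavy chains, and B2m encodes beta-2 microglobulin, the light chain that every class I heavy chain needs to reach the surface. Psmb8, Psmb9 and Psmb10 encode the catalytic subunits of the immunoproteasome, which take the places of the constitutive subunits Psmb5, Psmb6 and Psmb7. Tap1 and Tap2 form the peptide transporter of the endoplasmic reticulum, Tapbp encodes tapasin, which holds the empty class I molecule at the transporter, and Nlrc5 encodes the transactivator of class I genes. Interferon gamma induces the pathway in most cell types, and leukocytes express it at a high level without induction.

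7 of the 10 genes lie within 1 stretch of chromosome 17, chr17:33915899-35267499 on GRCm38 in the GENCODE M21 annotation, which holds the mouse MHC. Tapbp is at chr17:33915899-33929292, H2-K1 at chr17:33996017-34000347, Psmb9 at chr17:34181987-34187764, Tap1 at chr17:34187553-34197225, Psmb8 at chr17:34197721-34201454, Tap2 at chr17:34203527-34216321 and H2-D1 at chr17:35262730-35267499. B2m is at chr2:122147686-122153083, and Nlrc5 and Psmb10 are both on chromosome 8, at chr8:94434356-94527272 and chr8:105935735-105938444. All 10 are annotated as protein coding. Psmb9 and Tap1 are neighbours on opposite strands, and their annotated ends overlap. In an F2, linked genes are inherited together more often than genes on different chromosomes.

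The sequences upstream of H2-K1 and B2m are shown because they carry the motifs by which interferon and inflammatory signals are known to reach class I genes. RefSeq promoters of GRCm38.p6 were found for 8 of the 10 genes, all but Tap2 and Nlrc5. The H2-K1 stretch is chr17:34000348-34000597 on the minus strand and the B2m stretch is chr2:122147437-122147685 on the plus strand, each written 5′ to 3′ and ending at the annotated start of the gene. Capitals mark matches to the motifs searched.
H2-K1: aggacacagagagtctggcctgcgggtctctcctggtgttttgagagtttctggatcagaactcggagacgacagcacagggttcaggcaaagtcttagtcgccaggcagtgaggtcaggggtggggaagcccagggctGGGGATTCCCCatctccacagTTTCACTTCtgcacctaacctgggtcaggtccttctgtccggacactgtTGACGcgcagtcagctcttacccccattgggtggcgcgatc
B2m: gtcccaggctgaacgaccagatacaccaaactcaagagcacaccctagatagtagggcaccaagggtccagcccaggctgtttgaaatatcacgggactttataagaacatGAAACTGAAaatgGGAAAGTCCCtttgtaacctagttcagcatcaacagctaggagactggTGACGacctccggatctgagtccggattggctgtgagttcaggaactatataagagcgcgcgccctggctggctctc

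The motifs were the interferon response core GAAANNGAA and the same element read with its longer run of A at the other end, GAANNGAAA, the gamma-activated site TTCNNNGAA, the core TGACG of the cyclic AMP response element and the NF-kB motif, each on both strands. The GAANNGAAA form was added after the sequences had been read. An NF-kB match was present in 3 of the 8 windows (B2m, H2-K1 and H2-D1) and in 7.25% of all 32851 promoter windows of the same length. The GAAANNGAA core was present in B2m and in 7.13% of all windows, and GAANNGAAA in H2-K1 and H2-D1 and in 6.31%. TGACG was present in the windows of B2m, H2-K1, H2-D1, Tap1 and Psmb9 and in 17.8% of all windows, with the matches of Tap1 and Psmb9 being the same bases, chr17:34187470-34187474, and the gamma-activated site in Psmb8 and in 7.02%. In H2-K1 the stretch GGGGATTCCCC holds overlapping NF-kB matches on both strands.

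The NF-kB and GAANNGAAA matches of the 2 heavy chain genes sit in nearly identical 30-base stretches. They are shown side by side, at chr17:34000429-34000458 on the minus strand for H2-K1 and chr17:35262923-35262952 on the plus strand for H2-D1, with the motif matches in capitals.
H2-K1: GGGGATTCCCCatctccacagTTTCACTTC
H2-D1: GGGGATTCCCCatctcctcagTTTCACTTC
They differ by 1 base, A18T, with H2-K1 first and positions counted from 1 at the 5′ end of the 30 bases. The promoter windows of Tap1 and Psmb9 share 225 of 250 bases, read in opposite directions. All 250 bases of the windows of H2-D1, Psmb8, Psmb9, Tap1 and Tapbp lie inside exons of GENCODE M21, which for H2-D1, Psmb8 and Psmb9 are exons of the gene itself, so these windows precede the RefSeq start and not every annotated start. These letters are the reference sequence, and the WSB/EiJ alleles that many of the mice carry were not used here. A match describes these letters and was not tested as a site of binding.

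The libraries separated into a larger part of 79 and a smaller part of 36 along the first principal component of expression, which held 48.7% of the variance and was computed without the 10 genes. Both parts kept the same libraries in the 2 other ways of computing the component. Proliferation markers summed in the larger part to 3.61 to 162 TPM and neuroendocrine markers to 0.71 to 31.6 TPM, while their sums in the smaller part were 246 to 790 TPM and 6.75 to 712 TPM. Prostate luminal markers summed to 312 to 95727 TPM in the larger part and 4.11 to 2650 TPM in the smaller part, where 1 of these 7 markers had a median of 0. Leukocyte markers were detected in both, with sums of 32.2 to 1333 TPM and 8.85 to 288 TPM. Because the parts come from expression, levels are set side by side and were not tested between them. Each library is labelled with a different mouse, so p-values measure the spread between these mice and whatever differed in handling.

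2 sets of libraries stand apart and touch several results. The 6 libraries W5000 to W5005 of the larger part had Mki67 between 0.39 and 0.93 TPM, against 0.40 to 25.7 TPM in the other 73, and proliferation sums of 3.61 to 6.23 TPM. They lay below all 73 other libraries of the larger part in 116 of the 14623 genes whose mean reached 1 TPM, which is 0.793%, and 1 of the 10 genes, H2-K1, was among them. The labels give these 6 the same cross, tissue and genotype as the others, and whether that holds for them was not tested. The 4 libraries W1118, W1050, W1915 and W1790 of the smaller part had Chga between 0.15 and 2.55 TPM, against 21.2 to 479 TPM in the other 32. Both sets were singled out after their values had been seen, and results that rest on them are given with and without them.

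B2m had the highest level of the 10 genes. It ranged in the larger part from 349 to 9678 TPM with a median of 1508 TPM, and in the smaller part from 12.6 to 2567 TPM with a median of 104.2 TPM. H2-K1 followed, at 42.4 to 2063 TPM with a median of 329.8 TPM in the larger part and 9.07 to 967 TPM with a median of 52.4 TPM in the smaller part. H2-D1 ranged from 49.7 to 943 TPM with a median of 147 TPM in the larger part, and from 10.01 to 521 TPM with a median of 36.2 TPM in the smaller part. All 3 chains were thus abundant in most libraries of the larger part, and their ranges overlapped between the parts.

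The loading genes were lower than the chains. Tapbp ranged from 16.5 to 153 TPM with a median of 51.4 TPM in the larger part and from 4.43 to 77.4 TPM with a median of 10.5 TPM in the smaller part. Tap1 had medians of 10.5 and 4.14 TPM, with ranges of 2.37 to 41.3 TPM and 0.11 to 69.3 TPM. Tap2 had medians of 11.7 and 3.88 TPM, with ranges of 3.55 to 31.4 TPM and 0.32 to 23.2 TPM. Both transporter chains were therefore present at close to equal levels, and the widest swings were on the side of Tap1 in the smaller part.

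The immunoproteasome subunits were in the range of the transporter, and Nlrc5 was the lowest of the 10 genes. Psmb8 had medians of 20.2 TPM in the larger part and 9.61 TPM in the smaller part, with ranges of 3.83 to 90.9 TPM and 0.22 to 99.8 TPM. Psmb9 had medians of 10.7 and 3.17 TPM, with ranges of 2.64 to 44.5 TPM and 0.31 to 70.99 TPM. Psmb10 had medians of 14.02 and 4.83 TPM, with ranges of 5.01 to 36.9 TPM and 2.16 to 26.6 TPM. Nlrc5 had medians of 1.64 and 1.44 TPM, with ranges of 0.11 to 9.59 TPM and 0.04 to 21.03 TPM. Nlrc5 was the only one of the 10 genes under 1 TPM in any library of the larger part, reaching 1 TPM in 54 of 79. None of the 10 genes was listed at 0 in any library.

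**Figure D1:**
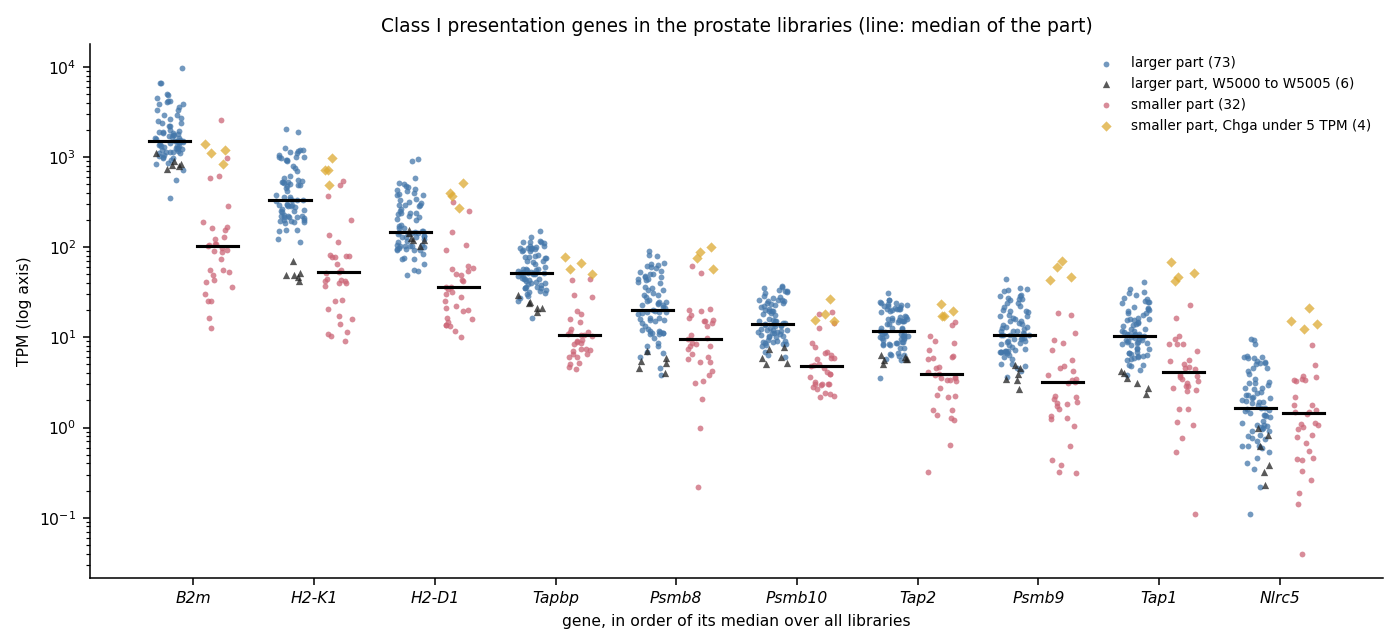
TPM on a log axis (y) of the 10 genes (x, in order of the median over all libraries), 1 point per library, with colours and symbols for the larger part, W5000 to W5005, the smaller part and its 4 libraries with Chga under 5 TPM, and a line at the median of each part. The median of B2m is 1508 TPM in the larger and 104.2 TPM in the smaller part, while the medians of Nlrc5 lie close together at 1.64 and 1.44 TPM.

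The order of the levels was firm at its ends and loose in the middle. B2m was above H2-K1 in all libraries but 1, and H2-D1 was above Tapbp and Tap1 above Nlrc5 in every library. Tap2 was above Psmb9 in 68 of the 79 and 36 libraries together and Psmb9 above Tap1 in 63, so these neighbours changed places from library to library. Psmb9 was above Tap1 in 52 of 79 libraries of the larger part and in 11 of 36 of the smaller part. H2-K1 was above H2-D1 in 73 of 79 and in 24 of 36.

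The genes also differed in how far they varied. The ratio of the 90th to the 10th percentile in the larger part was widest for Nlrc5 at 10.7 and Psmb8 at 9.06, and narrowest for Tapbp at 3.62, Tap2 at 3.73 and Psmb10 at 3.76. Within the smaller part it was widest for Psmb9 at 58.2, H2-K1 at 40.6 and B2m at 37.6, and narrowest for Psmb10 at 6.66 and Tapbp at 8.43. Library W992 of the smaller part, with Chga at 291 TPM and Krt8 at 1.72 TPM, had the lowest value of 7 of the 10 genes, among them B2m at 12.6 TPM, Tap1 at 0.11 TPM and Nlrc5 at 0.04 TPM.

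The 4 libraries of the smaller part with little Chga lay above all of the other 32 in 5 of the 10 genes, Tap1, Tap2, Tapbp, Psmb9 and Nlrc5, where 13.7% of all genes did so. Tap1 stood at 52.1 TPM in W1118, 69.3 TPM in W1050, 42.6 TPM in W1915 and 47.03 TPM in W1790, and at 0.11 to 22.7 TPM in the other 32. Psmb9 stood at 59.7, 70.99, 42.9 and 46.8 TPM in these libraries in the same order, and at 0.31 to 18.8 TPM in the other 32. Nlrc5 stood at 15.2, 21.03, 14.02 and 12.5 TPM, and at 0.04 to 8.28 TPM in the other 32. All 4 also exceeded the maximum of the larger part in Tap1, at 41.3 TPM, and in Nlrc5, at 9.59 TPM. Tap2 stood at 17.4 to 23.2 TPM in the 4 and at most at 14.9 TPM in the other 32, and Tapbp at 49.99 to 77.4 TPM and at most 44.4 TPM.

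H2-K1 in these libraries stood at 717, 967, 489 and 712 TPM, against 9.07 to 539 TPM with a median of 43.7 TPM in the other 32. H2-D1 stood at 400.0, 521, 270.0 and 373 TPM, against 10.01 to 313 TPM, so 3 of the 4 lay above the other 32 in both heavy chains. B2m stood at 1113, 1406, 827 and 1194 TPM in the 4, within the 12.6 to 2567 TPM of the other 32. The upper end of the 32 was library W4419, and the next highest was W4437 at 971 TPM. Krt8 stood at 369 to 631 TPM in the 4, and their neuroendocrine markers summed to 6.75 to 27.7 TPM against 133 to 712 TPM. Their macrophage markers summed to 177 to 512 TPM against 15.01 to 315 TPM, and Ptprc was 9.19 to 22.8 TPM. The part of these markers in the levels was not tested. In bulk tissue, fewer cells of a type and less RNA per cell cannot be told apart.

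Ratios between genes of 1 library do not depend on how the library was scaled. The immunoproteasome subunit Psmb8 stood against its constitutive counterpart Psmb5 at a median log2 ratio of −1.30 in the larger part, with a range of −3.40 to 0.58, and at −2.15 in the smaller part, with a range of −7.59 to 0.34. Psmb9 against Psmb6 had a median of −3.01 in the larger part and −5.34 in the smaller part. Psmb10 against Psmb7 had medians of −2.31 and −4.30. The immunoproteasome transcripts were therefore the minority beside their counterparts in most libraries, and Psmb8 exceeded Psmb5 in 7 of 79 libraries and 1 of 36. In the 4 libraries with little Chga, Psmb9 against Psmb6 was −1.75 to −1.22, above the −8.31 to −2.86 of the other 32.

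The heavy chains stood closer to B2m in the smaller part. H2-K1 against B2m had a median log2 ratio of −2.19 in the larger part, with a range of −4.72 to −0.24, and of −1.04 in the smaller part, with a range of −2.25 to 0.50. H2-D1 against B2m had medians of −3.31 and −1.38. The medians of B2m thus lay further apart between the parts than those of the heavy chains. Tap1 against Tap2 had medians of −0.19 and 0.13, and in the 4 libraries with little Chga it was 1.26 to 1.58.

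Libraries with more Ptprc, which encodes the leukocyte surface protein CD45, had more of the class I genes. Ptprc ranged in the larger part from 0.81 to 45.1 TPM with a median of 3.57 TPM, and in the smaller part from 0.60 to 22.8 TPM with a median of 4.00 TPM. The relation was fitted with limma as the slope of log2(TPM + 1) of each gene on log2(TPM + 1) of Ptprc, so that a slope of 1 means both change by the same factor on that scale. Adjusted p-values are Benjamini-Hochberg over all genes tested, and genes with an adjusted p under 0.05 were called. All 10 genes were called higher in the larger part, but so were 82.8% of all genes, and the median slope of all genes was 0.27. With median-of-ratios scaling, which removes a common shift of a library, the median slope was 0.01, 28.9% of genes were called higher and 27% lower, and 9 of the 10 were called higher. Over all genes the split of higher and lower calls was 12099 to 323 in TPM and 4229 to 3943 after that scaling.

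Nlrc5 had the lowest adjusted p of the 10 in the larger part, 5.09e-22, with a slope of 0.85 ± 0.06 (SE). H2-K1 had the steepest slope, 1.12 ± 0.12, and Psmb8 followed with 1.03 ± 0.10. B2m had the flattest, 0.53 ± 0.11, with an adjusted p of 6.25e-06, and after median-of-ratios scaling its slope was 0.18 with an adjusted p of 0.20. The other 6 slopes lay between 0.58 for Tapbp and 0.80 for Psmb9. Without W5000 to W5005 the 10 slopes were 0.47 to 0.92 and all 10 were called, against 79.4% of all genes. The chain that every class I molecule shares was therefore the one least tied to Ptprc in the larger part.

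All 10 genes of the smaller part were again called higher with Ptprc, against 35% of all genes. B2m had the steepest slope there, 1.48 ± 0.15, with an adjusted p of 7.84e-10, and H2-K1 followed with 1.36 ± 0.17. Psmb9 had 1.11 ± 0.15, H2-D1 1.05 ± 0.16, and Tap1 and Psmb8 both 0.96. Tap2 had the flattest, 0.61 ± 0.12, with an adjusted p of 0.000228. The median slope of all genes was 0.08. Without the 4 libraries with little Chga the slopes were 0.42 to 1.34 and all 10 were called, against 13.5% of all genes. The split over all genes was 5109 higher to 1701 lower, and 3268 to 3038 after median-of-ratios scaling, which also called all 10, with slopes of 0.53 to 1.51, against 22.4% of all genes called higher.

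The slope of B2m on Ptprc was higher in the smaller part than in the larger by 0.95 ± 0.18, with an adjusted p of 1.96e-06 from an interaction term in limma. It was the only one of the 10 called so, against 8.41% of all genes, and after median-of-ratios scaling 5 of the 10 were, against 27.4%. Without the 10 libraries that stand apart the B2m difference was 0.88 ± 0.20 and called, against 6% of all genes called higher, and Nlrc5 was then called lower, with a difference of −0.35 ± 0.12, as were 54.2% of all genes.

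Correlations were computed as well. Within the larger part Pearson's r of the 10 genes with Ptprc was 0.49 to 0.85 and Spearman's rho 0.64 to 0.88, and in the smaller part r was 0.63 to 0.85 and rho 0.58 to 0.91. These are among 60 correlations, of 10 genes with 3 reference genes in 2 parts, each tested two-sided with 100000 permutations and adjusted over the 60. All 20 with Ptprc were called, with adjusted permutation p-values of at most 3.87e-05 for r and 0.000567 for rho, and the smallest p that 100000 permutations can give is 1e-05. The 60 correlations cover the 10 genes alone, so no share over all genes stands beside the counts called by them here or below. By limma, 82.8% of all genes were called higher with Ptprc in the larger part and 35% in the smaller part. After removal of the 2 libraries with the most extreme Ptprc, r was 0.63 to 0.87 in the larger part and 0.64 to 0.85 in the smaller part. Macrophage markers, 6 of 6 with a median of at least 1 TPM in both parts, summed to 14.1 to 651 TPM in the larger and 15.01 to 512 TPM in the smaller part. T cell markers summed to 0.45 to 15.3 TPM and 0.44 to 11.1 TPM, with 1 of 6 and 0 of 6 reaching that median, NK and cytotoxic markers to 0.39 to 14.7 TPM and 0.05 to 6.14 TPM, and B cell markers to 0.18 to 6.82 TPM and 0.39 to 7.46 TPM. The share of the class I transcripts that leukocytes contribute was not tested.

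**Figure D2:**
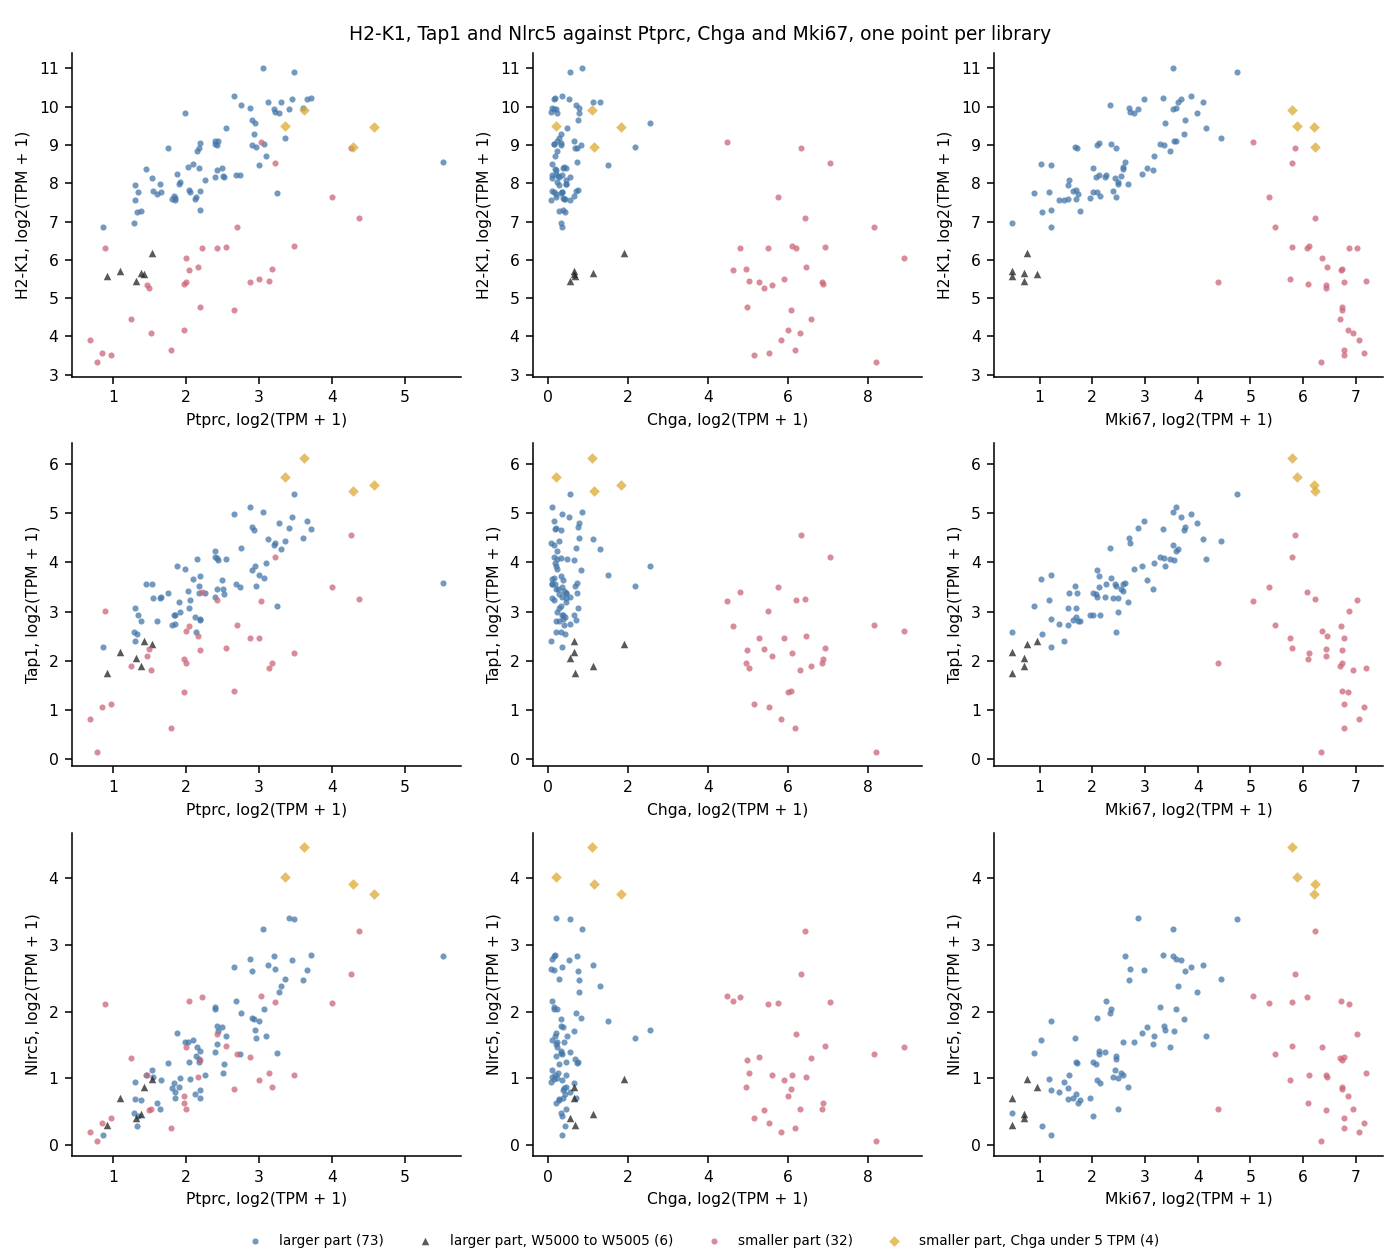
H2-K1, Tap1 and Nlrc5 (rows) against Ptprc, Chga and Mki67 (columns), both axes in log2(TPM + 1), 1 point per library, with colours and symbols for the larger part (73 plus the 6 libraries W5000 to W5005) and the smaller part (32 plus the 4 with Chga under 5 TPM). All 3 genes rise with Ptprc in both parts, rise with Mki67 in the larger part and fall with it in the smaller part, where Nlrc5 was not called, while against Chga the 4 low-Chga libraries sit apart at the top left of the smaller part.

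Mki67, which encodes the proliferation antigen Ki-67, went with class I genes in opposite directions in the 2 parts. Mki67 ranged in the larger part from 0.39 to 25.7 TPM with a median of 4.23 TPM, and all 10 genes were called higher with it, against 72.9% of all genes. Psmb8 had the lowest adjusted p, 3.07e-24, with a slope of 0.92 ± 0.06. H2-K1 had the steepest slope, 0.99 ± 0.08, and Tap2 the flattest, 0.49 ± 0.04, where the median of all genes was 0.18. The other slopes lay between 0.53 for Psmb10 and 0.70 for Psmb9.

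After median-of-ratios scaling the median slope of all genes on Mki67 in the larger part was −0.01, and 21.1% of genes were called higher. All 10 genes still were, with slopes of 0.29 to 0.85, while the split over all genes went from 10657 higher and 207 lower to 3079 and 3270. Without W5000 to W5005, which were among the libraries with the least Mki67, the slopes were 0.47 to 0.88 and all 10 were called, against 70.4% of all genes. With Ptprc in the same fit all 10 were called higher with Mki67, at slopes of 0.29 to 0.73, against 43.1% of all genes. The split of that fit was 6297 higher to 1211 lower, and 2950 to 3272 after median-of-ratios scaling. The relation to Mki67 in the larger part was thus present at a given level of Ptprc.

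Mki67 ranged in the smaller part from 20 to 144 TPM with a median of 83.5 TPM, and 9 of the 10 genes were called lower with it, against 21.5% of all genes. Tapbp had the lowest adjusted p, 0.000369, with a slope of −1.06 ± 0.23. H2-K1 had the steepest slope, −1.64 ± 0.41, followed by B2m with −1.62 ± 0.43 and Psmb9 with −1.27 ± 0.36. Nlrc5 had −0.58 ± 0.29 and an adjusted p of 0.0988, and was not called. After median-of-ratios scaling all 10 were called lower, with slopes of −1.91 to −0.74, against 34.5% of all genes. Without the 4 libraries with little Chga 8 of the 10 were called lower, with slopes of −1.38 to −0.35, against 21.2% of all genes.

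The relation in the smaller part depended on how proliferation and leukocytes entered the fit. With the mean z-score of the proliferation list in place of Mki67 limma called 0 of the 10, 0 had an unadjusted p under 0.05, and the slopes were −0.60 to 0.039 per unit of that score, where 3.51% of all genes were called lower. With Ptprc in the same fit 1 of the 10 was called lower, Tapbp with −0.63 ± 0.19 and an adjusted p of 0.0106, against 8.73% of all genes. After median-of-ratios scaling the fit with Ptprc called 7 of the 10 lower, against 25.9% of all genes, with splits over all genes of 3137 higher to 1275 lower in TPM and 3131 to 3791 after scaling. Without the 4 libraries, in TPM, it called 4 of the 10 lower, against 12.8% of all genes.

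An interaction term over all libraries put the slope on Mki67 lower in the smaller part for all 10 genes, against 43.4% of all genes. The difference was largest for H2-K1, −2.63, then B2m, −2.25, and Psmb9, −1.98. It was −1.80 for H2-D1 and Psmb8, −1.64 for Tapbp, −1.60 for Tap1, −1.38 for Tap2, −1.25 for Psmb10 and −1.17 for Nlrc5, with a highest adjusted p of 3.56e-06. Without the 10 libraries that stand apart the differences were −2.18 to −0.96, all 10 called, against 36.1% of all genes, and after median-of-ratios scaling all 10 were called against 34.4%. Pearson's r with Mki67 was 0.74 to 0.87 in the larger part and −0.61 to −0.32 in the smaller part, where it was called for 9 of the 10 genes, and Spearman's rho, at −0.71 to −0.44, for all 10 (permutation tests adjusted over the 60). After removal of the 2 libraries with the most extreme Mki67, r was 0.72 to 0.86 and −0.68 to −0.48.

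**Figure D3:**
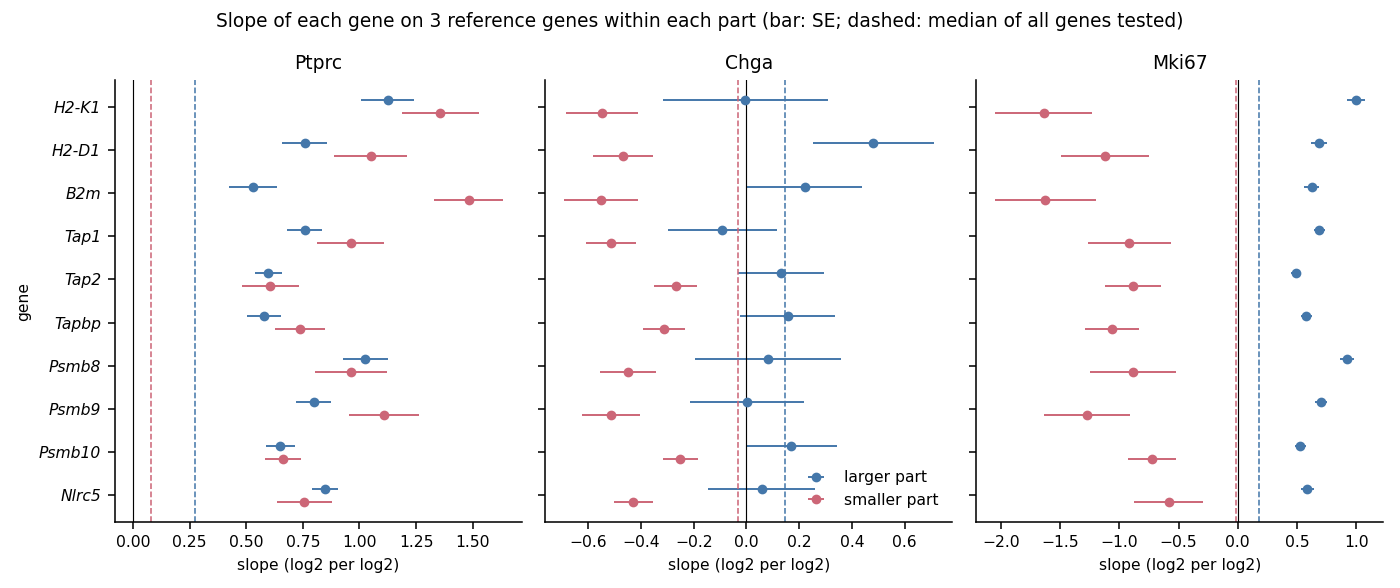
Slope of each of the 10 genes (y) on log2(TPM + 1) of Ptprc, Chga and Mki67 (x, log2 per log2), with points for the estimate in each part, bars for its SE and dashed lines for the median of all genes tested. The points for Mki67 lie between 0.49 and 0.99 in the larger part and between −1.64 and −0.58 in the smaller part.

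Chga, the granin that marks neuroendocrine cells, went with lower class I levels in the smaller part, and this rested on 4 libraries. Chga ranged there from 0.15 to 479 TPM with a median of 57.2 TPM. All 10 genes were called lower with Chga, against 24.1% of all genes, with slopes from −0.25 ± 0.07 for Psmb10 to −0.55 ± 0.14 for H2-K1 and B2m. Nlrc5 had the lowest adjusted p, 2.91e-05, with a slope of −0.43 ± 0.07, and Tap2 the highest, 0.0113. Without the 4 libraries with Chga under 5 TPM, 0 of the 10 were called by limma, 0 at an unadjusted p under 0.05, and the slopes were −0.18 to 0.15, where 0.198% of all genes were called lower. Fitted on ranks, 0 of the 10 were called and 5 had an unadjusted p under 0.05, where 0.219% of all genes were called lower. The 32 other libraries, with Chga from 21.2 to 479 TPM, thus showed no association that this test called.

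Correlations behaved alike. There r with Chga was −0.70 to −0.48, called for all 10, and rho was −0.36 to −0.07, called for 1, Nlrc5, with an adjusted permutation p of 0.0475. After removal of the 2 libraries whose Chga lay farthest from its median, W1050 and W1118, r was −0.53 to −0.28, and without all 4 it was −0.12 to 0.16. With Ptprc in the same fit 3 of the 10 genes were called lower with Chga, against 9.92% of all genes: Tap1 with −0.34 ± 0.08 and an adjusted p of 0.00197, Psmb9 with −0.30 ± 0.09 and 0.0147, and Nlrc5 with −0.30 ± 0.06 and 0.000811. Without the 4 libraries 0 of the 10 were, and 0 had an unadjusted p under 0.05, where 0.349% of all genes were called lower. The splits over all genes were 1449 higher to 3520 lower without Ptprc, and 2532 to 2785 after median-of-ratios scaling.

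In the larger part, where Chga ranged from 0.06 to 4.84 TPM with a median of 0.30 TPM, limma called 0 of the 10 genes with Chga, against 18.8% of all genes called in either direction. Their slopes were −0.09 to 0.48, the median of all genes was 0.15, and 1 of the 10, H2-D1, had an unadjusted p under 0.05. With Ptprc in the same fit 0 of the 10 were called, against 16.4% of all genes, and 1, Tap1, had an unadjusted p under 0.05. Pearson's r with Chga was −0.05 to 0.23 there and called for 1, H2-D1, with an adjusted permutation p of 0.0493, while Spearman's rho was −0.08 to 0.17 and called for 0. After median-of-ratios scaling each of these 2 fits called 1 gene lower, against 11.4% and 17.6% of all genes, and without W5000 to W5005 the first called 2 higher, against 39.2%, and the second 0, against 7.38%. The splits over all genes were 2725 higher to 20 lower against 1764 to 1662 after scaling, and with Ptprc 2348 to 54 against 2388 to 2580. The slope of H2-D1 on Chga was lower in the smaller part by an interaction term, −0.95 with an adjusted p of 0.00957, against 20.8% of all genes, and was not called after median-of-ratios scaling, with an adjusted p of 0.093, or without the 10 libraries that stand apart.

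Other genes of the pathway were counted by lists. Of 15 further class I and class I-like chains, 14 reached the mean of 1 TPM that the fits required. With Ptprc 12 of the 14 were called higher in the larger part, a share close to the 82.8% of all genes, and 13 in the smaller part, against 35%, and none lower. Median-of-ratios scaling gave 10 higher and 1 lower in the larger part, against 28.9% and 27% of all genes. The steepest in the larger part were H2-Q7 at 1.21 and H2-Q6 at 1.12, both Qa-2 genes, and H2-T23, which encodes Qa-1, at 1.01. Mr1, which presents vitamin metabolites, had a slope of 0.00 with an adjusted p of 0.99. With Mki67 11 were called higher in the larger part, against 72.9% of all genes, and 11 lower in the smaller part, against 21.5%. After that scaling 8 were higher in the larger part, against 21.1% of all genes. In the smaller part 12 were then lower, against 34.5%, and 1 was higher. With Chga in the smaller part 12 were called lower, against 24.1% of all genes, and 1 higher, the lipid-presenting Cd1d1 with 0.26 ± 0.09. Without the 4 low-Chga libraries none was called either way, where 0.198% of all genes were called lower.

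Of 7 loading and trimming genes, 5 were called higher with Ptprc in the larger part, beside 82.8% of all genes, and the other 2 were the chaperone Calr at −0.05 and the disulfide isomerase Pdia3 at −0.01. All 7 were called higher with Ptprc in the smaller part, against 35% of all genes, and with Mki67 in the larger part, against 72.9%, and 6 lower with Mki67 in the smaller part, against 21.5%. Erap1, the aminopeptidase that trims peptides in the endoplasmic reticulum, had the steepest of these, −1.12 ± 0.21. Median-of-ratios scaling left 1 higher and 3 lower with Ptprc in the larger part, against 28.9% and 27% of all genes. The median slope was then 0.04 against 0.01 for all genes, and 4 were higher with Mki67, against 21.1%.

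The 3 constitutive proteasome subunits had flatter median slopes on Ptprc and Mki67 than the 10 genes. Their median on Ptprc was 0.18 in the larger part, under the 0.27 of all genes, where the 10 genes had 0.76. All 3 were called higher with Ptprc and with Mki67 in the larger part, against 82.8% and 72.9% of all genes. After median-of-ratios scaling 0 were higher and 2 lower with Ptprc, against 28.9% and 27%, and 0 were called with Mki67. Only 1 was called higher with Ptprc in the smaller part, against 35% of all genes, and 2 were lower with Mki67, against 21.5%. Their median slope on Mki67 there was −0.35, against −0.99 for the 10 genes and −0.01 for all genes.

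Of 8 interferon signal genes 7 were tested, and Ifng itself was under the filter. All 7 were called higher with Ptprc in both parts, with a median slope of 0.44 in each, against 82.8% of all genes in the larger and 35% in the smaller part, and all 7 with Mki67 in the larger part, against 72.9%. Median-of-ratios scaling left 4 higher and 2 lower with Ptprc in the larger part, against 28.9% and 27% of all genes, and 3 higher with Mki67, against 21.1%. In the smaller part 2 were called lower with Mki67, against 21.5% of all genes, and 6 after median-of-ratios scaling, against 34.5%. With Chga 4 were called lower there, against 24.1%, and 0 without the 4 low-Chga libraries or on ranks, where 0.198% and 0.219% of all genes were. The 3 DNA-binding partners of Nlrc5 that were counted, Rfx5, Rfxap and Rfxank, were all called higher with Ptprc in the larger part, against 82.8% of all genes. Scaling left 0 higher and 2 lower, against 28.9% and 27%. In the smaller part Rfx5 was called higher with Mki67, 0.35 ± 0.08, and Rfxank lower, −0.23 ± 0.09 with an adjusted p of 0.0314.

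The 10 genes varied together within both parts. Pearson's r over the 45 pairs of genes was 0.68 to 0.97 with a median of 0.90 in the larger part and 0.78 to 0.97 with a median of 0.90 in the smaller part. The libraries share composition and scaling, so these values are a description. The closest pair in the larger part was Psmb8 and Psmb9, and in the smaller part Tap1 and Psmb9. Without the 4 low-Chga libraries the closest in the smaller part was H2-K1 and Psmb9 at 0.96, with Tap1 and Psmb9 at 0.92. The loosest in the larger part was B2m and Nlrc5. The 21 pairs within chromosome 17 had a median of 0.91 in the larger part and 0.92 in the smaller part, and the other 24 pairs 0.84 and 0.88. Without W5000 to W5005 the range in the larger part was 0.65 to 0.97, and without the 4 low-Chga libraries that in the smaller part was 0.58 to 0.96.

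**Figure D4:**
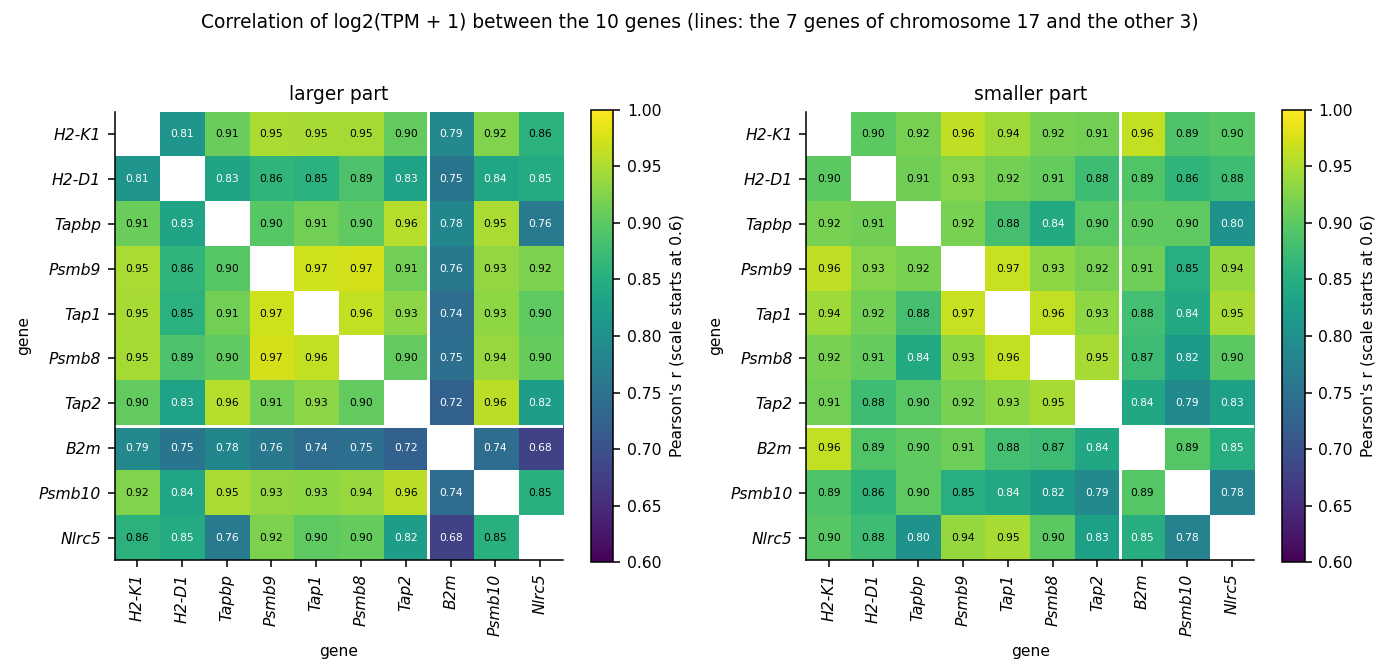
Pearson's r of log2(TPM + 1) between the 10 genes (both axes) in each part, as a colour scale that starts at 0.6, with lines between the 7 genes of chromosome 17 and the other 3. The palest cells are Psmb8 with Psmb9 in the larger part and Tap1 with Psmb9 in the smaller part, both 0.97, and the darkest is B2m with Nlrc5 in the larger part, 0.68.

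Among all genes tested, those most like each member in the larger part were sought by Pearson's r over the 79 libraries, 3 for each. Of these 30 places, 12 were held by other members. H2-K1 was closest to H2-T23 at 0.96, and the next were Psmb9 and Tap1, both 0.95. Tap1 was closest to Psmb9 and Psmb8 and then to Irgm1, an interferon-inducible GTPase, at 0.96. Psmb8 had Mlkl, the effector of necroptosis, among its nearest 3, at 0.96. Psmb10 was closest to the interferon-induced Ifi35 and Nlrc5 to the interferon-responsive Epsti1, at 0.96 and 0.94. Tapbp was closest to Rpa1 and had Msh6 among its nearest 3, genes of DNA replication and mismatch repair, both 0.96.

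H2-D1 and B2m had looser neighbours over the 79 libraries of the larger part. H2-D1 was closest to the interferon-induced Ifit2 at 0.89, then to Psmb8 at 0.89 and Tnfrsf21 at 0.88. B2m was closest to Strip2, Cadm1 and the tetraspanin Tspan8, at 0.84, 0.84 and 0.83, and none of the 10 genes was among its 3. Without W5000 to W5005 the r of H2-D1 was 0.94 with H2-K1 and 0.94 with Psmb8, against 0.81 and 0.89 with them. That of B2m with H2-K1 was 0.81 without them. In the smaller part H2-D1 was closest to H2-Q4 at 0.95 and B2m to H2-K1 at 0.96.

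The 6 libraries W5000 to W5005 lay below the rest of the larger part in 1 heavy chain and overlapped with it in the other. H2-K1 was 42.4 to 71.04 TPM with a median of 49.1 TPM in the 6, and 115.02 to 2063 TPM with a median of 343 TPM in the other 73. H2-D1 was 101.8 to 154 TPM with a median of 123 TPM in the 6, inside the 49.7 to 943 TPM of the others. Against B2m, H2-D1 had a median log2 ratio of −2.74 in the 6 and −3.35 in the 73, with overlapping ranges. The log2 ratio of H2-K1 to H2-D1 was −1.55 to −1.11 in the 6 and 0.53 to 1.93 with a median of 1.12 in the 73. A mixture of 2 normal distributions on this ratio lowered the BIC by 71.9 with an Ashman D, the distance of the means over their spread, of 9.06, and put exactly 6 libraries in the lower part. In the smaller part the ratio was −1.58 to 1.86 and did not separate.

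The same 6 libraries were below the other 73 in 3 of the 14 further chains tested, beside the 0.793% of all genes. H2-T22 was 0.78 to 0.98 TPM in the 6 and 17.9 to 78.4 TPM in the 73, H2-T23 was 5.39 to 8.27 TPM and 24.1 to 239 TPM, and H2-M3, which presents formylated peptides, was below as well. B2m, Tap1, Tap2, Tapbp, Psmb8, Psmb9, Psmb10 and Nlrc5 overlapped between the sets. Luminal markers summed to 7619 to 95727 TPM in the 6 and to 312 to 18074 TPM in the 73. Macrophage markers summed to 14.1 to 30.5 TPM in the 6 and to 18.5 to 651 TPM in the 73, and the median sums of T cell, NK and B cell markers were also lower in the 6. The leukocyte list went the other way, with a median sum of 257 TPM (32.2 to 464) in the 6 and 161 TPM (61.9 to 1333) in the 73. The part of tissue composition and of H2 sequence in these differences was not tested.

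The H2 genes differ in sequence between the parent strains, so a chain could show 2 levels in an F2. None of the 10 genes separated into 2 levels within either part by the rule of a BIC fall over 10, an Ashman D over 2 and at least 6 libraries on each side. An F2 can hold more than 2 genotypes at a locus, and levels ranged widely within each part, so this rule can miss an effect of genotype. The part of MHC genotype in the levels of the 10 genes was not tested. Of the 15 further chains, 4 did so in the larger part. H2-T22 and H2-T23 split off the 6 libraries. H2-Q1 split into 23 libraries at 0.04 to 0.50 TPM and 56 at 0.55 to 29.7 TPM, with a BIC fall of 38.3 and an Ashman D of 3.36, and H2-T10 into 13 at 0.31 to 1.17 TPM and 66 at 1.47 to 11.8 TPM. Within the smaller part 3 chains separated, H2-T23, H2-M2 and Mr1.

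H2-Q1 did not follow the classical chains. Its r over the 79 libraries was 0.96 with H2-K2, an annotated pseudogene next to H2-K1, 0.40 with H2-K1, 0.04 with H2-D1 and −0.46 with H2-Q2. H2-K1 against H2-T23 was 0.96. Without the 6 libraries these 5 values were 0.96, 0.30, 0.00, −0.48 and 0.95. These chains share sequence. Of the stretches of 50 bases in GENCODE transcripts, 9.63% in H2-K1 and 12.8% in H2-D1 also occur in another gene, most often H2-Q10 and H2-Q1. The shares were 15% in H2-Q1 and 34.5% in H2-T22, and 0% in B2m, Psmb9, Psmb10 and Nlrc5. Reads of the H2 genes can therefore be split between copies, and their values are uncertain. The reads were paired and longer than 50 bases and were mapped to both parental sequences. These shares therefore do not measure how large that uncertainty is.

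**Figure D5:**
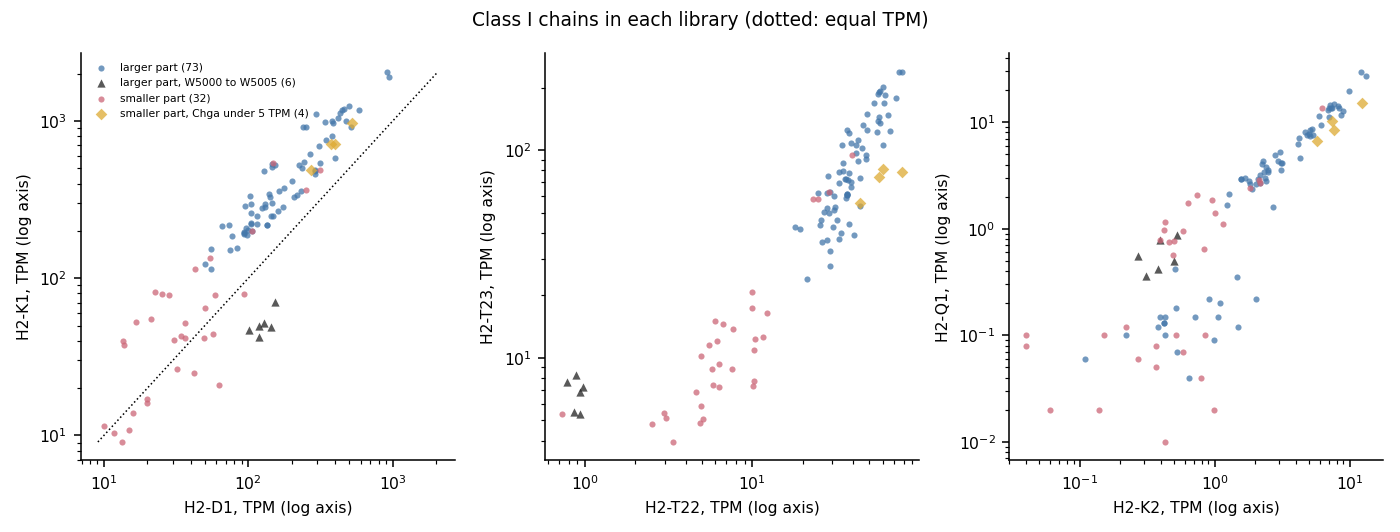
TPM of pairs of class I chains on log axes, H2-K1 against H2-D1 (dotted line at equal TPM), H2-T23 against H2-T22, and H2-Q1 against H2-K2, 1 point per library, in the 4 sets of libraries named in the legend, and libraries listed at 0 for a gene are not drawn. W5000 to W5005 sit below the line in the first panel, with a log2 ratio of −1.55 to −1.11 where the other 73 libraries of the larger part have 0.53 to 1.93. Of the smaller part, 12 of 36 libraries also lie below the line. In the second panel the 6 sit left of all other libraries of the larger part, and W992 of the smaller part lies further left, with H2-T22 at 0.73 TPM.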

How the data were processed

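The authors deposited TPM for 45699 genes in 79 and 36 libraries, the parts defined below. Per the study's methods and the labels, total RNA was depleted of rRNA, reads were trimmed, mapped with Bowtie2 to an allele-specific C57BL/6 and WSB transcriptome made with Seqnature and quantified with RSEM. The submitters' processing notes list CASAVA 1.8.2, Bowtie2 2.2.5, RSEM 1.2.20 and GRCm38. TPM holds no counts, so no count model was used and no depth can be given. Libraries held 10358 to 15824 genes at 1 TPM or more, and the 20 most abundant genes held 48.9% to 81.8% of a library.

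Gene names and positions came from GENCODE M21, which named 98.8% of the genes. The members and lists were chosen with earlier results of these data known. Parts were set by a mixture of 2 normal distributions on the first principal component of log2(TPM + 1), over the 14623 genes whose mean reached 1 TPM. Within each part, slopes were fitted with limma 3.58.1 (trended, robust) in R 4.3.3, with a pseudocount of 1. Correlations used 100000 permutations. The named genes were the 10 members, the 3 reference genes, the 3 largest and 3 smallest slopes of the pathway lists in a fit, and the 3 genes nearest to each member. The text names fewer of these than the rule allows. The settings varied were the pseudocount, the scaling (median of ratios), rescaling without the 20 most abundant genes, no filter, ranks, marker lists in place of single genes, all libraries together, and leaving out libraries. The fits were tested on simulated data. Other steps ran in Python 3.11.15, with scikit-learn 1.9.0 for the mixtures, scipy 1.17.1 for the correlations, pandas 2.3.3 and numpy 2.4.6 for the tables and matplotlib 3.10.9 for the plots.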

Additional observations from a re-analysis of the deposited data

Results flagged for a closer look

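The slopes of all 10 genes on Mki67 differed between the larger and the smaller part by an interaction term in limma, with the sign of the slope positive in the larger and negative in the smaller part. The differences, smaller minus larger part, were −2.63 for H2-K1, −1.80 for H2-D1, −2.25 for B2m, −1.60 for Tap1, −1.38 for Tap2, −1.64 for Tapbp, −1.80 for Psmb8, −1.98 for Psmb9, −1.25 for Psmb10 and −1.17 for Nlrc5, where the median over all genes was −0.21. All 10 were called after median-of-ratios scaling too, with differences of −2.76 to −1.16, where 34.4% of all genes were called lower. Within the smaller part Nlrc5 was not called with Mki67, and the proliferation list in its place called 0 of the 10. With Ptprc in the same fit 1 of the 10 was called lower there, against 8.73% of all genes. Mki67 was 0.39 to 25.7 TPM in the larger and 20 to 144 TPM in the smaller part, so the slopes cover ranges that barely overlap. The slope of B2m on Ptprc was higher in the smaller part by 0.95, and after median-of-ratios scaling by 1.32. The slope of H2-D1 on Chga was lower in the smaller part, with a difference of −0.95, and of −0.58 after median-of-ratios scaling, where it was not called.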

How the results depend on the processing

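No paired analysis was possible because the labels give 1 group with no replicate numbers. The alternatives that left out W5000 to W5005 or the 4 low-Chga libraries, and the fits on Mki67 with Ptprc, were chosen after seeing the data. The cause of the changes below was not tested, beyond what fewer libraries or genes imply. Slopes of single members over the alternatives were counted for Ptprc and Mki67 in each part and for Chga in the smaller part. With Ptprc added, only Tap1, Psmb9 and Nlrc5 on Chga in the smaller part were counted. Of these, 412 kept their direction and their side of the threshold, 44 were no longer called, 4 became called and 17 reversed. Slopes on Chga in the larger part were left out of this count. They were −0.09 to 0.48 in the main fit and −0.49 to −0.20 with all libraries in 1 fit.

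Counts of members called. With Chga in the larger part (0 of 10) it was 1 lower under median-of-ratios scaling, against 11.4% of all genes called lower. It was 2 higher with the marker list, and 2 higher without the 6 libraries, against 39.2% of all genes called higher. With all libraries of both parts in 1 fit it was 10 lower. With Ptprc added (0) it was 1 lower under median-of-ratios scaling, against 17.6% of all genes called lower. It was 1 lower without the 20 most abundant genes and 8 lower with all libraries. With Chga in the smaller part (10) it was 0 on ranks, against 0.219% of all genes called lower. It was 2 without the 2 farthest libraries, and 0 without the 4, against 0.198%. With Ptprc added (3, against 9.92% of all genes) it was 8 with the other pseudocount, 8 under median-of-ratios scaling and 8 without the 20 genes. It was 0 on ranks, 9 with the marker lists, 8 with all libraries and 0 without the 2 farthest. It was 0 without the 4, against 0.349% of all genes called lower. With Mki67 in the smaller part (9) it was 0 with the marker list, against 3.51% of all genes called lower. With Ptprc added (1) it was 7 under median-of-ratios scaling, against 25.9%, and 4 without the 4 libraries, against 12.8%. The calls with Chga and Mki67 in the smaller part were all lower, except that all libraries in 1 fit called 10 higher with Mki67. Where no share over all genes stands beside a count, that count shows nothing particular to the 10 genes. Counts over all genes that moved are listed after these.

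Counts of all genes called. With Ptprc in the larger part (12422) it was 8172 under median-of-ratios scaling and 20846 with no filter. With Mki67 in the larger part (10864) it was 6349 under that scaling and 6100 without the 20 genes. With Chga in the larger part (2745) it was 5177 with no filter, 7190 with the marker list, 4924 with all libraries and 5740 without the 6. With Ptprc added (2402) it was 4968 under median-of-ratios scaling, 4059 without the 20 genes, 5115 with no filter, 4948 with all libraries and 1079 without the 6. With Ptprc in the smaller part (6810) it was 4458 without the 20 genes, 11271 with all libraries and 2190 without the 4. With Chga in the smaller part (4969) it was 333 on ranks, 1234 without the 2 farthest and 1350 without the 4. With Ptprc added (2457) it was 3797 without the 20 genes, 395 on ranks, 4948 with all libraries and 565 without the 2 farthest. With Mki67 in the smaller part (6545) it was 15385 with no filter, 3098 with the marker list and 9818 with all libraries, and with Ptprc added (4412) it was 6922 under median-of-ratios scaling.

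Slopes that reversed, among those counted. Without the 4 libraries the slopes on Chga in the smaller part were 0.073 for H2-D1, 0.13 for Tap2, 0.13 for Tapbp and 0.15 for Psmb9. With Ptprc added the slope was 0.19 for Psmb9. Over all 10 genes that fit gave −0.12 to 0.19 with a median of 0.02. The main fit with Ptprc gave −0.34 to −0.11. On the proliferation list in place of Mki67 the slopes were 0.039 for Tap1 and 0.033 for Nlrc5. With all libraries in 1 fit and the part as a term, the slopes on Mki67 were 0.62 for H2-K1, 0.43 for H2-D1, 0.31 for B2m, 0.46 for Tap1, 0.30 for Tap2, 0.35 for Tapbp, 0.66 for Psmb8, 0.43 for Psmb9, 0.35 for Psmb10 and 0.42 for Nlrc5, against negative slopes in the smaller part alone.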
